A study of Mus musculus with 6 samples.

Results

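The genes described here are 9 that set how much glucose the liver makes and how much it burns: Pck1, G6pc, Fbp1, Pcx, Gckr, Pklr, Pfkfb1, Slc2a2 and Mlxipl. They were picked by name for their known roles, with earlier results of these data known, and all 9 were found once among the 21528 genes listed. RNA-Seq had been performed in the liver of 3 wild type (WT) and 3 TRIM24C52/55A mice, with 1 library per mouse. Both genotypes were labelled as strain C57BL/6, 5 months old, on a high fat diet (HFD) with 60% fat for 3 months. TRIM24C52/55A mice were homozygous for a knockin made with CRISPR/Cas9 in C57Bl/6J mice, in which 2 cysteines of the RING domain, Cys52 and Cys55, were changed to alanine to remove the E3 ubiquitin ligase activity of TRIM24, and WT mice were littermates. Neither the feeding state nor the hour at which the livers were taken was given in the labels. FPKM do not record the codons of TRIM24, so the genotype of a library could not be checked from them.

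Gluconeogenesis turns lactate, amino acids and glycerol into glucose, and glycolysis runs the other way. Steps that cannot be reversed are held by separate enzymes, such as pyruvate carboxylase (Pcx) and phosphoenolpyruvate carboxykinase (Pck1) against pyruvate kinase (Pklr), and fructose-1,6-bisphosphatase (Fbp1) against phosphofructokinase (Pfkl). Glucose-6-phosphatase (G6pc) makes the free glucose that leaves the cell. Glucagon and glucocorticoids raise, and insulin lowers, the transcription of Pck1 and G6pc, while the glucose-sensing factor ChREBP (Mlxipl) drives Pklr.

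Of the 9 genes, 3 passed the test and all 3 were lower in the TRIM24C52/55A liver: Pcx, Fbp1 and the glucose transporter gene Slc2a2 (limma on log2(FPKM + 1), adjusted p under 0.05 over all genes). Mean FPKM in TRIM24C52/55A livers was 58.7% of the WT mean for Pcx, 70.9% for Fbp1 and 67.6% for Slc2a2. Pck1 and G6pc, the genes most often read as markers of gluconeogenesis, did not pass it, and their groups overlapped. Of the 12225 genes tested, 7.72% passed in either direction, 6.09% lower and 1.64% higher. All 3 TRIM24C52/55A libraries lay below all 3 WT libraries for 5 of the 9 genes and above them for 1, against 22.5% and 6.31% of all genes tested. The median log2 fold change was -0.49 over the 9 genes and -0.08 over all genes. The 9 are highly expressed, and among the 2832 genes with a mean at least as high as the lowest of them, 13.4% passed as lower and 3.28% as higher, with a median of -0.14. These fold changes compare bulk liver, in which fewer cells of a type and less RNA per cell cannot be told apart. The limma p-values set each difference against the spread among these 6 mice within genotypes, moderated by the trend over all genes.

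**Figure D1:**
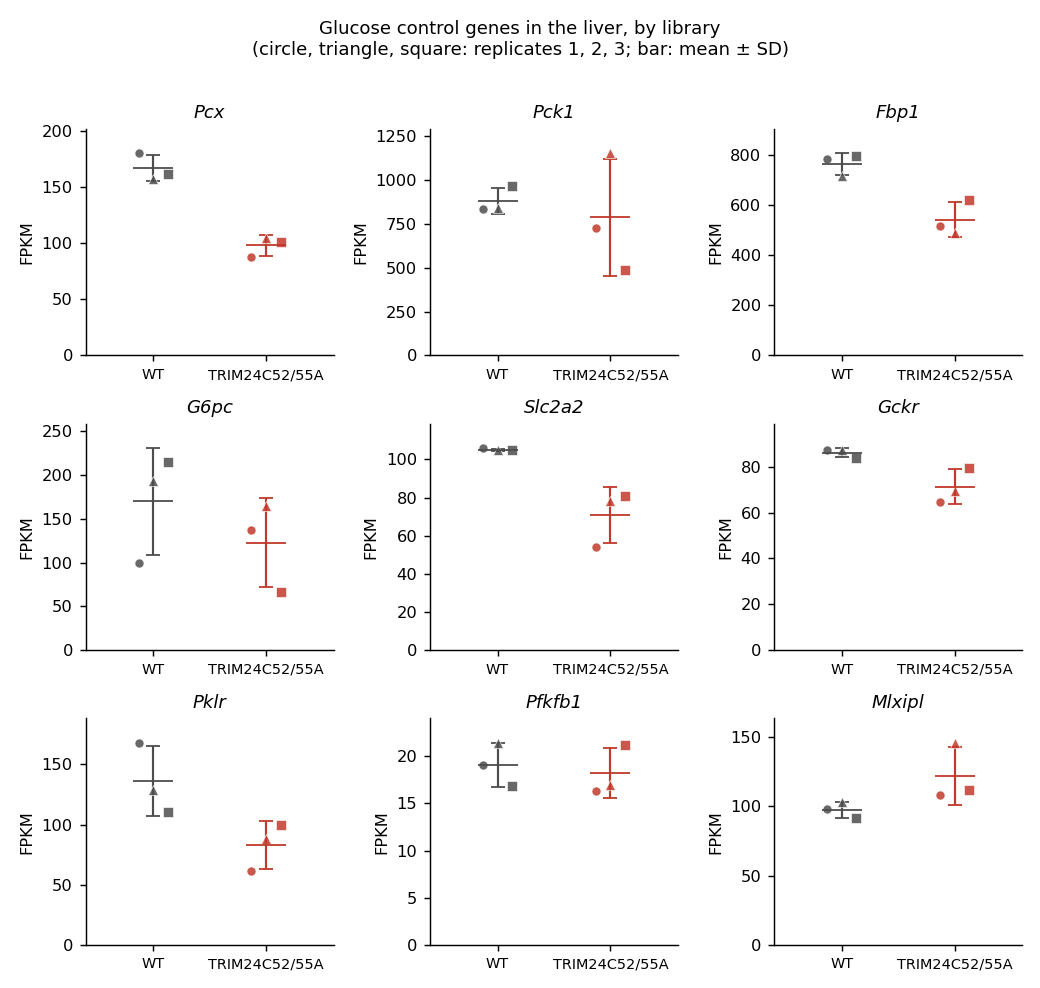
FPKM (vertical axes, each from 0) of the 9 genes in the 6 liver libraries, WT in grey and TRIM24C52/55A in red, with replicates 1, 2 and 3 as circle, triangle and square and bars for mean ± SD (n = 3). The red points lie below all grey points for Pcx, Fbp1, Slc2a2, Gckr and Pklr and above them for Mlxipl, and mix with them for Pck1, G6pc and Pfkfb1.

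The bases just upstream of the start site are shown for the 3 genes that passed and for Pck1 and G6pc, because the control of gluconeogenesis by hormones is classically read at the promoters of the latter pair. Each run holds the 250 bases before the RefSeq start (GRCm38.p6), 5′ to 3′ on the strand of the gene, and capitals mark matches to any motif searched.
Pck1, chr2:173152823-173153072, + strand: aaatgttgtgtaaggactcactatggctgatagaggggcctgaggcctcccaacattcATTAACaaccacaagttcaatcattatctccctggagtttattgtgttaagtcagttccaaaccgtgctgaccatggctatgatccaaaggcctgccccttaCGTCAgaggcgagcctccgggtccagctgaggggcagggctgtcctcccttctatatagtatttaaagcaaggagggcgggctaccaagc
G6pc, chr11:101367466-101367715, + strand: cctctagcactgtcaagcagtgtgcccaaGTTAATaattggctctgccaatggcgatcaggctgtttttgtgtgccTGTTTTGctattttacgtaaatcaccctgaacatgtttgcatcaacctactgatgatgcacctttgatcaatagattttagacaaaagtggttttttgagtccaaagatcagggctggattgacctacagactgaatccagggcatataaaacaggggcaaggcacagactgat
Fbp1, chr13:62888283-62888532, - strand: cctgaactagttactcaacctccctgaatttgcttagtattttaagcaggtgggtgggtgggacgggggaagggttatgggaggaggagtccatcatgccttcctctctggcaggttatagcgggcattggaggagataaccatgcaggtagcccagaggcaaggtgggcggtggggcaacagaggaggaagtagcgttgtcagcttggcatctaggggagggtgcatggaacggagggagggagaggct
Pcx, chr19:4510222-4510471, + strand: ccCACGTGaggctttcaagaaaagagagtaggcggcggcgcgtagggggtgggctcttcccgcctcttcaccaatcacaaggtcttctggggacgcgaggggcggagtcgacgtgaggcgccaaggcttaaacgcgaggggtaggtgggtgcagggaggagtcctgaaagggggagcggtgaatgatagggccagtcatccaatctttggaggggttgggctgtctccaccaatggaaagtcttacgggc
Slc2a2, chr3:28697653-28697902, + strand: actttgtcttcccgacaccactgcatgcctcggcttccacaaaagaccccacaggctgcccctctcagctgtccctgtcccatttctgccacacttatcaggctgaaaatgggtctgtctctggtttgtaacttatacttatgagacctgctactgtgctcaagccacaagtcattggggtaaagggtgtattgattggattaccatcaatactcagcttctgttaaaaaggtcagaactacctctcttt
The motifs, on both strands, were the cAMP response element TGACGTCA and its core TGACG (which the longer motif holds), the E-box CACGTG, the FoxO cores TGTTTAC and TGTTTTG, the glucocorticoid element core TGTTCT, the C/EBP motifs TTGCGCAA and TTGCAA and the HNF1 core GTTAAT. In Pck1 the capitals are TGACG on the opposite strand, 90 to 86 bases before the start, and GTTAAT on the opposite strand, 192 to 187 bases before it. In G6pc they are GTTAAT 221 to 216 bases and TGTTTTG 174 to 168 bases before the start. Of 32851 promoters, 17.8% held TGACG, 6.43% GTTAAT and 5.56% TGTTTTG in the same window. The windows of Fbp1 and Slc2a2 held none of the motifs. The first of 2 RefSeq promoters of Pcx, the one shown, held 1 E-box, as did 6.02% of promoters, and the second held none of the motifs. The remaining shares were 1.55% for TGACGTCA, 3.17% for TGTTTAC, 16.1% for TGTTCT, 0.164% for TTGCGCAA and 5.34% for TTGCAA. The windows of Pck1 and G6pc reach into the genes as GENCODE M21 annotates them, since that annotation starts both further upstream than RefSeq. A match is a description of these letters and not a binding site.

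Pcx, the mitochondrial enzyme that turns pyruvate into oxaloacetate and so opens gluconeogenesis, had the smallest adjusted p of the 9. In order of replicate number, the WT libraries held 180, 157 and 162 FPKM of it and the TRIM24C52/55A libraries 87.6, 105 and 101 FPKM. The lowest WT library stood well above the highest TRIM24C52/55A library. This gave a log2 fold change of -0.76 (standard error 0.09, 95% interval from -0.98 to -0.54, adjusted p = 0.00449 from limma), and it passed in all 15 alternative settings of the analysis, where it ran from -0.83 to -0.60. Pcx (ENSMUSG00000024892) occupies 4510472 to 4621752 on chromosome 19, + strand (GRCm38, GENCODE M21). The gene Lrfn4 lies within it on the other strand and was listed at 0.501 to 1.01 FPKM over the 6 libraries.

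Pck1, which turns oxaloacetate into phosphoenolpyruvate, was the highest of the 9 genes. It had 832, 837 and 964 FPKM in WT and 727, 1150 and 486 FPKM in TRIM24C52/55A livers. The knockin libraries lay on both sides of the WT libraries, with the highest and the lowest value of all 6, and spread over 2.37-fold where WT spread over 1.16-fold. Its log2 fold change was -0.24 (standard error 0.26, interval from -0.85 to 0.36, adjusted p = 0.638 from limma), an interval wide enough to hold both a fall larger than that of Fbp1 and a rise. TRIM24C52/55A replicate 2, the high one, also held adipocyte transcripts. The adipocyte genes Adipoq (4.55 FPKM), Plin1 (3.32 FPKM) and Lep (3.98 FPKM), picked with their values known, did not exceed 0.127 FPKM elsewhere, and 11 of the 14 adipocyte markers listed were highest in it. Adipocytes also express Pck1, and the part of these transcripts in its value was not tested. Without that library the log2 fold change of Pck1 was -0.56 (adjusted p = 0.083 from limma), and without TRIM24C52/55A replicate 3, the low one, it was 0.06. Pck1 (ENSMUSG00000027513) occupies 173153048 to 173159273 on chromosome 2, + strand.

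Fbp1, which takes a phosphate off fructose-1,6-bisphosphate, was lower. Its values were 782, 715 and 794 FPKM in WT and 516, 488 and 621 FPKM in TRIM24C52/55A livers. The groups did not overlap, and WT replicate 2 was the closest to the knockin range. It had a log2 fold change of -0.50 (standard error 0.10, interval from -0.74 to -0.26, adjusted p = 0.0266 from limma). It passed in 9 of 15 alternatives and failed with median-of-ratios scaling (adjusted p = 0.0797 from limma), with no filter on low FPKM, and without WT replicate 1, 2 or 3 or TRIM24C52/55A replicate 1 (adjusted p from 0.0565 to 0.105 in those limma fits). Fbp1 (ENSMUSG00000069805) occupies 62864753 to 62888282 on chromosome 13, - strand.

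G6pc, which releases free glucose from glucose-6-phosphate, varied within both genotypes. It had 100, 193 and 215 FPKM in WT and 137, 165 and 66.5 FPKM in TRIM24C52/55A livers. WT replicate 1 lay below 2 of the 3 knockin libraries, and the highest library was 2.15 times the lowest in WT and 2.48 times in TRIM24C52/55A. This was a log2 fold change of -0.49 (standard error 0.37, interval from -1.34 to 0.37, adjusted p = 0.488 from limma), with a much wider interval than that of Fbp1. With 1 library left out it ran from -0.82 (without WT replicate 1) and -0.75 (without TRIM24C52/55A replicate 2) to -0.28 (without WT replicate 3) and -0.10 (without TRIM24C52/55A replicate 3). TRIM24C52/55A replicate 3 had the lowest value of both Pck1 and G6pc among the 6 libraries. G6pc (ENSMUSG00000078650) occupies 101367561 to 101377903 on chromosome 11, + strand.

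Slc2a2 encodes GLUT2, the transporter through which glucose enters and leaves hepatocytes. WT libraries had 106, 105 and 105 FPKM and TRIM24C52/55A libraries 53.9, 78.4 and 80.7 FPKM. WT values were nearly equal, and all knockin libraries were below them, replicate 1 the most. Its log2 fold change was -0.58 (standard error 0.14, interval from -0.92 to -0.25, adjusted p = 0.0467 from limma), just inside the threshold. It passed in 7 of 15 alternatives and failed, among others, with median-of-ratios and quantile scaling (adjusted p = 0.0779 and 0.133 from limma), and without WT replicate 1, 2 or 3 (0.117 to 0.139 in those limma fits). The gene (ENSMUSG00000027690) occupies 28697903 to 28731359 on chromosome 3, + strand, but its interval in the deposited tables runs on for 49.7 kb, over the antisense transcript 1700112D23Rik, and whether the counting used strand was not stated.

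Gckr, a regulatory protein of hepatic glucose use, had 87.3, 87.3 and 83.8 FPKM in WT and 64.7, 69.3 and 79.6 FPKM in TRIM24C52/55A livers. The groups did not overlap, with knockin replicate 3 close under WT. This gave a log2 fold change of -0.28 (standard error 0.09, interval from -0.48 to -0.07, adjusted p = 0.106 from limma), and Gckr passed only with values rescaled to TPM (adjusted p = 0.0428) and without TRIM24C52/55A replicate 3 (adjusted p = 0.0471). Gckr (ENSMUSG00000059434) occupies 31297443 to 31327314 on chromosome 5, + strand.

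Pklr, the liver pyruvate kinase and the last step of glycolysis, had 168, 129 and 110 FPKM in WT and 61.6, 87.6 and 100 FPKM in TRIM24C52/55A livers. The groups came close to each other, at WT replicate 3 and knockin replicate 3, but did not overlap. Its log2 fold change was -0.71 (standard error 0.20, interval from -1.17 to -0.25, adjusted p = 0.0715 from limma), the second largest in size of the 9, and it passed with TPM (adjusted p = 0.0409) and without TRIM24C52/55A replicate 3 (adjusted p = 0.047). Pklr (ENSMUSG00000041237) occupies 89136142 to 89146784 on chromosome 3, + strand. Its interval in the tables runs 13.4 kb further, across Hcn3 on the other strand. Hcn3 itself had 4.05, 3.52 and 2.78 FPKM in WT and 0.810, 1.07 and 2.21 FPKM in TRIM24C52/55A livers (log2 fold change -0.95, adjusted p = 0.0349 from limma), so that both genes of this interval were lower, and reads shared between them cannot be told apart.

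Pfkfb1 makes and breaks down fructose-2,6-bisphosphate, the signal that favours glycolysis over gluconeogenesis, and was the lowest of the 9. It had 19.1, 21.4 and 16.8 FPKM in WT and 16.3, 17.0 and 21.2 FPKM in TRIM24C52/55A livers. The groups overlapped almost wholly. The log2 fold change of -0.07 (standard error 0.13, interval from -0.36 to 0.22, adjusted p = 0.789 from limma) turned to 0.03 with median-of-ratios scaling, to 0.05 with quantile normalization and to 0.01 without WT replicate 2. Pfkfb1 (ENSMUSG00000025271) occupies 150588229 to 150643878 on chromosome X, + strand, and its interval in the tables begins 68.7 kb earlier and takes in Apex2 and Alas2. Alas2, which is expressed in red cell precursors, was at 52.8 to 57.0 FPKM in WT and 60.4 to 86.7 FPKM in TRIM24C52/55A livers.

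Mlxipl, which encodes ChREBP, was the only one of the 9 with higher values in TRIM24C52/55A livers, 108, 146 and 112 FPKM against 98.4, 103 and 91.4 FPKM in WT. The groups did not overlap, with the highest value in replicate 2. It had a log2 fold change of 0.31 (standard error 0.12, interval from 0.04 to 0.58, adjusted p = 0.161 from limma), and it passed in 0 of 15 alternatives, with adjusted p from 0.0648 to 0.392 in these limma fits. Without TRIM24C52/55A replicate 2, the library with adipocyte transcripts, its log2 fold change was 0.18. Mlxipl (ENSMUSG00000005373) occupies 135089890 to 135138382 on chromosome 5, + strand. An exact permutation test on the FPKM of a single gene cannot go below a two-sided p of 0.1 with 3 against 3, the value reached by each of the 6 genes whose groups did not overlap. It gave 0.7 for Pck1, 0.4 for G6pc and 0.6 for Pfkfb1.

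**Figure D2:**
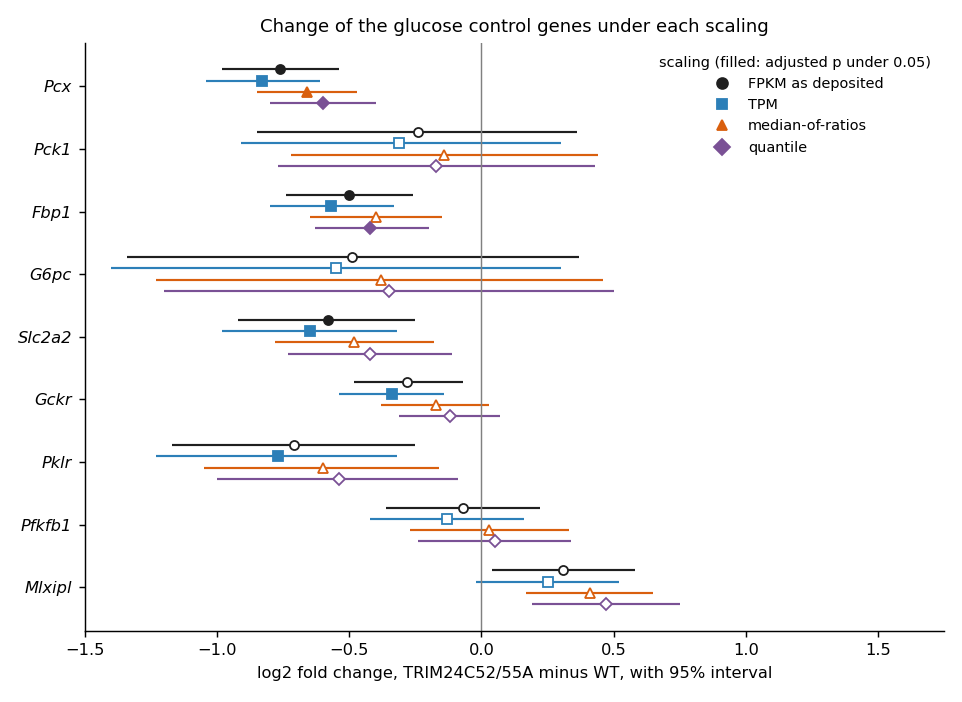
Log2 fold change, TRIM24C52/55A minus WT (horizontal axis), of the 9 genes with 95% intervals from limma, for FPKM as deposited and after TPM, median-of-ratios and quantile scaling. Filled symbols have an adjusted p under 0.05. Pcx is filled in all 4 scalings, Fbp1 in 3, Slc2a2 in 2 and Gckr and Pklr with TPM alone, and Pfkfb1 lies on both sides of 0.

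FPKM are scaled to transcript length, so the levels of the 9 genes can be set in order within a genotype. In WT livers the means ± SD (n = 3) were 878 ± 74.8 for Pck1, 763 ± 42.7 for Fbp1, 170 ± 61.0 for G6pc, 167 ± 12.0 for Pcx, 136 ± 29.1 for Pklr, 105 ± 0.663 for Slc2a2, 97.5 ± 5.67 for Mlxipl, 86.1 ± 2.02 for Gckr and 19.1 ± 2.34 FPKM for Pfkfb1. G6pc and Pcx overlapped in this order, as did Pcx and Pklr, and the other neighbours were apart in every library. In TRIM24C52/55A livers the means were 786 ± 333 for Pck1, 541 ± 70.2 for Fbp1, 123 ± 50.8 for G6pc, 122 ± 20.8 for Mlxipl, 98.1 ± 9.28 for Pcx, 83.2 ± 19.8 for Pklr, 71.2 ± 7.63 for Gckr, 71.0 ± 14.8 for Slc2a2 and 18.2 ± 2.64 FPKM for Pfkfb1. Pck1 and Fbp1 now overlapped, and Mlxipl stood above every value of Pcx, where in WT it had stood below. By its mean over the 6 libraries Pck1 ranked 103 and Fbp1 128 among all genes listed.

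Opposing enzymes were then compared as ratios within each library, which do not depend on how libraries are scaled to each other. For Pck1 to Pklr the ratios were 4.97, 6.48 and 8.73 in WT and 11.8, 13.1 and 4.84 in TRIM24C52/55A livers, and the groups overlapped through knockin replicate 3 (log2 difference 0.47, two-sided exact permutation p = 0.4). That difference was 0.92 without TRIM24C52/55A replicate 3, 0.21 without TRIM24C52/55A replicate 2, 0.27 without WT replicate 1 and 0.28 without TRIM24C52/55A replicate 1. Fbp1 to Pfkl was 52.1, 55.6 and 58.5 against 59.8, 44.2 and 76.2, with no common direction (log2 difference 0.08, exact permutation p = 0.7). Both genes of that pair were lower, Pfkl with a log2 fold change of -0.54 (adjusted p = 0.0345 from limma). So neither ratio of synthesis to breakdown moved beyond its spread.

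The ratio of Pcx to Pdha1, the carboxylase against a subunit of pyruvate dehydrogenase that competes for pyruvate, was 3.06, 2.73 and 2.82 in WT and 2.58, 2.51 and 2.59 in TRIM24C52/55A livers. It was lower in all 3 knockin libraries, by a small margin (log2 difference -0.17, exact permutation p = 0.1, which is the floor of this design). Both genes of this pair fell, Pdha1 by 0.59 on the log2 scale (adjusted p = 0.00955 from limma). At this floor no ratio could pass a threshold of 0.05.

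**Figure D3:**
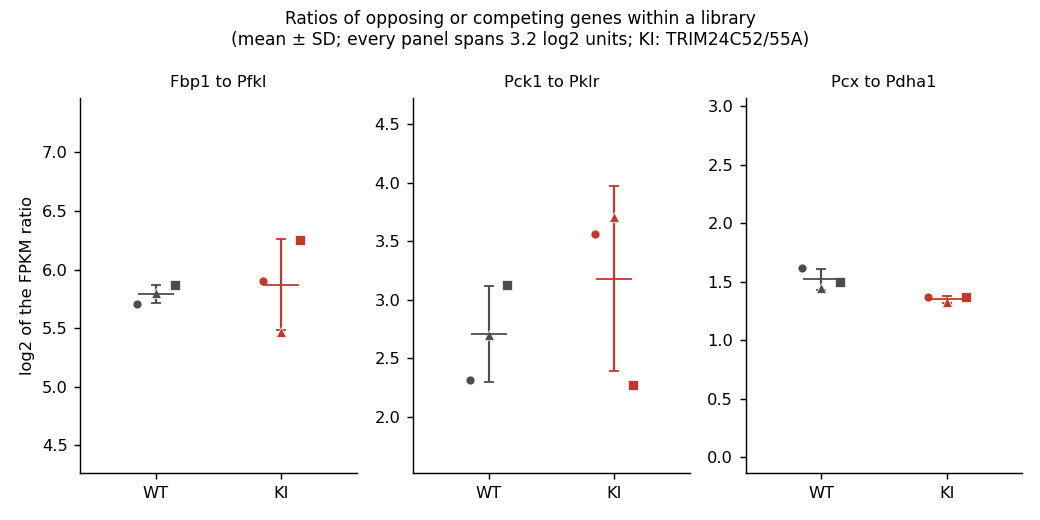
Log2 ratio of the FPKM of 2 genes within a library (vertical axes, 3.2 log2 units each) for WT in grey and TRIM24C52/55A (KI) in red, with mean ± SD (n = 3). Knockin libraries lie apart from WT, narrowly and below it, for Pcx to Pdha1, and mix with WT for Pck1 to Pklr and Fbp1 to Pfkl.

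Other genes of these pathways were counted in 8 lists that leave out the 9 genes. Of 159 distinct genes tested, 34 were lower and 1 higher at an adjusted p under 0.05 from limma, with a median log2 fold change of -0.25. These are 21.4% lower and 0.629% higher, beside 6.09% and 1.64% of all genes tested and 13.4% and 3.28% of the 2832 genes at least as high as the lowest of the 9. Like those 9, the lists were written with earlier results known, and no difference between lists was tested.

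Of 22 other genes of gluconeogenesis and substrate entry, 9 (40.9%) passed and all 9 fell, with a median log2 fold change of -0.40 over the list. Slc25a10, the mitochondrial dicarboxylate carrier, went from 182, 159 and 202 FPKM in WT to 81.4, 81.1 and 93.4 FPKM in TRIM24C52/55A livers (log2 fold change -1.07, adjusted p = 0.00165 from limma). Gpd1, the cytosolic glycerol-3-phosphate dehydrogenase that glycerol carbon passes through, fell by 0.82 on the log2 scale (adjusted p = 0.00223 from limma). Mpc1, a subunit of the carrier that brings pyruvate to Pcx in mitochondria, fell by 0.70 (adjusted p = 0.0133 from limma), and Got2, the mitochondrial aspartate aminotransferase, fell by 0.41 (adjusted p = 0.0215 from limma). Each of these 4 was lower in every knockin library than in every WT library. The number that fell was 3 with quantile normalization and 13 with TPM.

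Of 30 genes of glycolysis and pyruvate oxidation, 9 (30%) passed and all 9 fell, with a median of -0.33 over the list. Gapdh, which works in both directions of the pathway and is often taken as a reference gene, had 962, 868 and 827 FPKM in WT and 524, 639 and 568 FPKM in TRIM24C52/55A livers (log2 fold change -0.62, adjusted p = 0.0111 from limma). Pdha1 and Pfkl, described above, were also among the 9. The number that fell was 5 with median-of-ratios or quantile scaling, 16 with TPM and 15 without TRIM24C52/55A replicate 2.

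Of 7 genes of hexose transport and fructose use, 2 (28.6%) passed. Khk and Tkfc, the kinases that start and complete fructose breakdown, fell by 0.55 and 0.64 (adjusted p = 0.0237 and 0.0101 from limma), and the number that passed was 1 with quantile normalization and 3 with TPM. Of 21 glycogen genes, 3 (14.3%) fell, the phosphoglucomutase Pgm2 by 0.48, the branching enzyme Gbe1 by 0.69 and the liver glycogen synthase Gys2 by 0.33 on the log2 scale (adjusted p = 0.0101, 0.0421 and 0.043 from limma). That share is close to the 13.4% that passed as lower among genes at least as high as the lowest of the 9, and the number was 1 with median-of-ratios or quantile scaling and 5 with TPM.

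Of 32 transcription factors and cofactors of glucose genes, 2 passed, both lower, a share of 6.25% close to the 6.09% of all genes, and the median log2 fold change was 0.01, or -0.05 with TPM. Mlx, which encodes the obligate partner of ChREBP, had 20.4, 20.2 and 21.3 FPKM in WT and 14.9, 15.5 and 16.4 FPKM in TRIM24C52/55A livers (log2 fold change -0.38, adjusted p = 0.0245 from limma). The log2 fold change of Mlxipl mRNA had the opposite sign but did not pass (adjusted p = 0.161 from limma). Cebpb, a factor that binds the promoters of Pck1 and G6pc, fell by 0.94 (adjusted p = 0.0428 from limma). With median-of-ratios or quantile scaling neither passed. Foxo1, Ppargc1a and Hnf4a, picked with their values known, had log2 fold changes of -0.07, -0.11 and 0.04 with overlapping groups. Of 16 genes of hormone input, 1 passed as lower and 1 as higher, 6.25% each, beside 6.09% and 1.64% of all genes. Adcy6, an adenylate cyclase, fell by 0.66 (adjusted p = 0.00941 from limma) and the insulin receptor substrate Irs2 rose by 0.76 (adjusted p = 0.0373 from limma), with a median of -0.08, or 0.02 with quantile normalization. Irs2 passed in 10 of 15 alternatives and failed with no filter and without WT replicate 1 or 3 or TRIM24C52/55A replicate 1 or 2.

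Of 19 other ChREBP targets, 8 (42.1%) passed and all 8 fell, with the lowest median of the lists, -0.75. The values of Mlxipl itself were higher, though it did not pass. Rgs16, a regulator of G protein signalling, had 62.9, 36.2 and 24.9 FPKM in WT and 4.78, 10.7 and 7.84 FPKM in TRIM24C52/55A livers (log2 fold change -2.23, adjusted p = 0.00965 from limma). Me1, the malic enzyme that supplies NADPH, fell by 1.39 (adjusted p = 0.00304 from limma), beside Gpd1. Many genes of this list are lipogenic and answer to SREBP1 and LXR as well. Of 17 clock genes, which time the daily rhythm of glucose output, 4 (23.5%) fell, among them Bhlhe40, Per1 and Ciart by 0.66, 1.04 and 0.70 (adjusted p = 0.0199, 0.0268 and 0.0331 from limma), with a median of -0.26, and the hour of sampling was not in the labels. The number was 2 with median-of-ratios or quantile scaling and 6 with TPM.

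**Figure D4:**
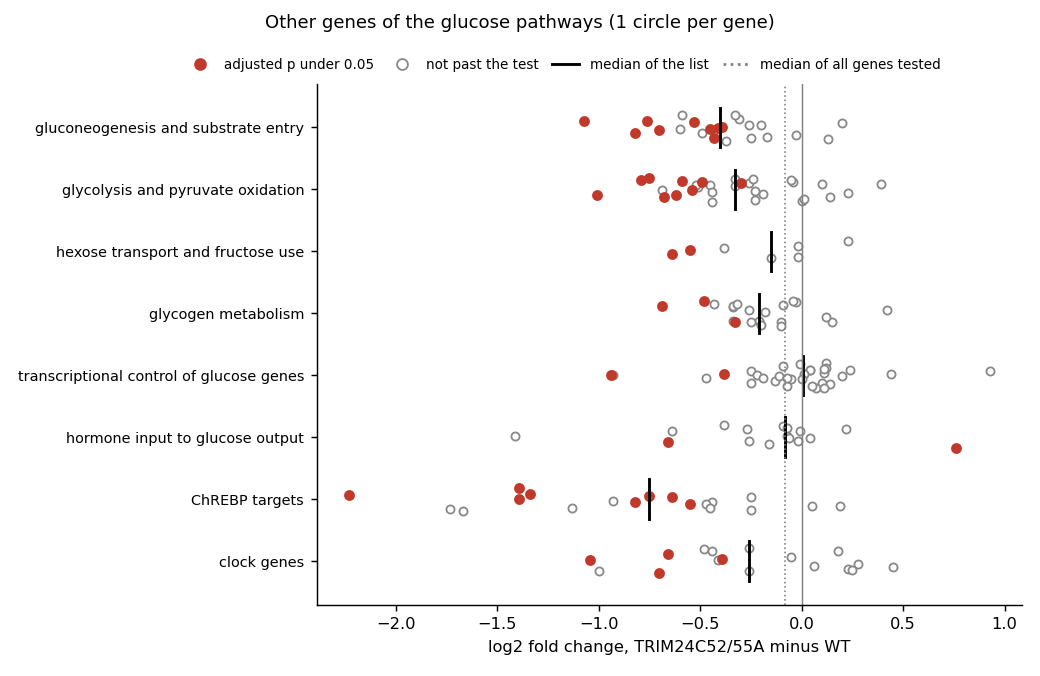
Log2 fold change, TRIM24C52/55A minus WT (horizontal axis), of the genes tested in 8 glucose lists, 1 circle per gene, red where the adjusted p was under 0.05, with the median of each list as a black bar and the median of all genes as a dotted line. Red circles lie left of 0 in every list, with Irs2 the only one to the right, and the bar of the transcription factors lies near 0.

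The genes whose pattern over the 6 libraries was most like those of the 3 that fell were found by Pearson's r of log2(FPKM + 1). The genotype difference itself takes part in r, which ignores level and size of change. They were Atp5a1 (r = 0.998), Fuca2 (0.997) and Apoc2 (0.997) for Pcx, Slc47a1 (0.998), Mogat1 (0.995) and Psmc6 (0.993) for Fbp1, and Slc25a11 (0.997), Naf1 (0.996) and H2afx (0.994) for Slc2a2. Of these, Atp5a1, Psmc6, Slc25a11, Naf1 and H2afx did not pass the test. With 6 points such values are common, and 425, 286 and 193 genes had an r above 0.95 with Pcx, Fbp1 and Slc2a2.

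The liver was marked by hepatocyte genes in every library, with Apoa1 from 5560 to 8180 FPKM, Ttr from 4480 to 5840 FPKM and Cyp2e1 from 2140 to 3930 FPKM. Of 7 hepatocyte markers tested, Cyp2e1 was lower, Cps1 was higher and 5 did not pass, and 4 of the 7 had an unadjusted p under 0.05 in limma. Their summed level was 19900 to 20800 FPKM in WT and 19100 to 21400 FPKM in TRIM24C52/55A livers. Of 6 Kupffer cell markers 0 passed in limma and 1 had an unadjusted p under 0.05 (summed 137 to 182 and 121 to 161 FPKM), and of 6 sinusoidal endothelial markers 1 was lower (114 to 122 and 108 to 112 FPKM). Of 5 red blood cell markers 0 passed in limma and 4 had an unadjusted p under 0.05 (673 to 1800 and 522 to 729 FPKM). Of 10 adipocyte markers tested, 1 was lower and 1 higher, and 4 had an unadjusted p under 0.05 in limma (1930 to 2300 and 1530 to 2160 FPKM, nearly all from Car3), and Adipoq, Plin1, Lep and Retn were at or near 0 outside TRIM24C52/55A replicate 2. Of 10 pancreas markers 7 were not listed, and Cela1 was higher (3.50 to 8.26 and 10.8 to 16.1 FPKM). The muscle markers summed to at most 1.52 FPKM in any library, and of the kidney and gut list, Fabp2 was lower (162 to 166 and 58.6 to 85.8 FPKM). The part of these cell types in the values of the glucose genes was not tested. FPKM summed to 644619 to 648221 in WT and 673244 to 676791 in TRIM24C52/55A libraries, sums that are not read depths, and steps between low values put the depths at 0.962 to 1.03 times that of WT replicate 1.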

How the data were processed

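RNA-Seq of liver from 3 WT and 3 TRIM24C52/55A mice was used, grouped by the genotype in the labels. For each library the authors deposited 1 table of FPKM per gene (fragments scaled to transcript length and to mapped fragments). The submitters' processing notes name bcl2fastq, Salmon 0.14.0, DESeq2 1.30.0 and GRCm38, with no role or order. No read counts were used here, so depth is known only in relative terms, from steps between low values.

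Genes averaging 0.5 FPKM or more over the 6 libraries were fitted as log2(FPKM + 1) in limma 3.58.1 under R 4.3.3 (eBayes moderated by a mean-variance trend, genotype as the only term), with Benjamini-Hochberg adjustment over all 12225 genes and a threshold of 0.05. Fold changes are on that scale. In a simulation of this comparison over 12225 genes, the fit called 172 of the 200 made to differ 2-fold and 8 others. Those 200 were drawn from the more highly expressed genes. None of the 9 genes differed 2-fold, so the share called does not describe smaller changes such as theirs. Single genes and ratios had two-sided exact permutation tests in Python 3.11.15 with scipy 1.17.1. The 9 genes and all lists were chosen with earlier results of these data known. Named genes are the 9, the partners in ratios, every list gene that passed or the 4 with the smallest adjusted p, up to 3 markers per list, and the 3 most alike genes, and some of them are not reported here. All 9 genes matched RefSeq promoters by symbol, 15 in all. Gene lists and cell type markers, of which Alb was not analysed here, were written from general knowledge. The alternatives were no filter, a floor of 1 FPKM on the mean, a pseudocount of 0.1, rescaling to TPM, by median-of-ratios or by quantiles, eBayes without trend or robust, the replicate block, and each library left out.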

Additional observations from a re-analysis of the deposited data

How the results depend on the processing

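Of the 9 glucose control genes, 3 passed as reported, 1 with no filter, 1 with median-of-ratios scaling and 5 with TPM, and 1 to 5 with 1 library left out. The fewest, 1, came without WT replicate 1, 2 or 3, fits on fewer samples, and the most, 5, without TRIM24C52/55A replicate 3. Without TRIM24C52/55A replicate 2, the library with adipocyte transcripts, 3 passed. Pcx passed throughout. With 1 library left out, the log2 fold change of Pck1 ran from -0.56 (without TRIM24C52/55A replicate 2) to 0.06 (without TRIM24C52/55A replicate 3) and that of Pfkfb1 from -0.18 (without TRIM24C52/55A replicate 3) to 0.01 (without WT replicate 2), and Pfkfb1 was at 0.03 after median-of-ratios and 0.05 after quantile scaling. The log2 difference of Fbp1 to Pfkl ran from -0.11 (without TRIM24C52/55A replicate 3) to 0.29 (without TRIM24C52/55A replicate 2). Pck1 to Pklr ran from 0.21 to 0.92 when 1 library was left out.

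Of the 159 other pathway genes, 35 passed as reported, 10 with no filter, 56 with TPM, 18 after quantile normalization, 22 after median-of-ratios scaling, and 9 to 43 with 1 library left out. Of all genes, 944 passed as reported, 347 with no filter and 1555 with TPM, and 296 (without TRIM24C52/55A replicate 1) to 1272 (without TRIM24C52/55A replicate 2) with 1 library left out. Genes lower and higher numbered 744 and 200 as reported, 1358 and 197 with TPM, 378 and 255 after quantile normalization, and 406 and 250 after median-of-ratios scaling. The median of all genes was -0.08 as reported, -0.14 with TPM and 0.01 with each of the other scalings. With the replicate block 2 of the 9 genes (Pcx and Fbp1), 22 pathway genes and 578 of all genes passed. The ratios were not refitted with the block, which cannot change a difference of means in a balanced design. Same-numbered mice are different animals, and their deviations from the genotype means correlated at -0.123, -0.0988 and 0.00267. These values show no shift shared by same-numbered libraries. They cannot tell whether such mice were littermates or were handled together. The cause of these shifts was not tested. With 3 mice a genotype, intervals of Pck1 and G6pc include changes of either sign.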
